A study of Homo sapiens with 2 samples.

Results

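Collagens and laminins are the structural proteins of the extracellular matrix, and their genes were examined in PLC-8024, a human hepatocellular carcinoma (HCC) cell line. The genes were taken by symbol, under a rule set with earlier results of these data known. The rule was a COL symbol with a collagen type and chain number, or a LAMA, LAMB or LAMC symbol with a chain number. The tables held 56 such genes (44 collagens and 12 laminins) among 58174 genes, and 19 of the 56 (12 collagens and 7 laminins) reached at least 1 TPM in either library. TPM divides the reads of a gene by its length and sets every library to the same total, so that levels can be compared between genes. The data comprised 2 libraries, 1 of cells carrying a control vector (PLC-8024-CTR, labelled Control, here the control cells) and 1 of cells made to overexpress GDF1 (PLC-8024-GDF1, labelled GDF1-overexpression, here the GDF1 cells). GDF1 is a secreted ligand of the TGF-β superfamily. It was delivered to the cells in virus, and stably transduced cells were kept under puromycin selection. No other agent, time point or allele distinguished the libraries by their labels. Each condition has a single library and thus no replicate check, so the values below describe these 2 libraries and carry no p-value, standard error or interval.

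Collagen chains share a triple helix, in which glycine recurs at a fixed spacing (Gly-X-Y), and 3 chains wind around each other. Fibrillar collagens form the ropes of connective tissue, type IV collagen forms the net of basement membranes, and other types sit on fibrils, cross the plasma membrane or anchor epithelia. Laminins are cross-shaped trimers of 1 alpha, 1 beta and 1 gamma chain, and they form the other net of basement membranes, to which epithelial cells bind through integrins and dystroglycan. In the liver the fibrillar collagens are known mainly as products of activated stellate cells and fibroblasts, and HCC cells grow against this matrix.

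The repeat can be read directly from the genes. In fibrillar collagens it is spread over many short exons of 54 bases, each with 6 glycine codons (GGN). For the 4 fibrillar members above 1 TPM and for COL16A1, the member with the widest difference between the libraries with a pseudocount of 1, the 54-base exon whose GC content was nearest to the median of that gene's repeat exons of this length is printed here from the GRCh37 transcripts of GENCODE, 5′ to 3′ on the coding strand, with the glycine codons in capitals.
COL3A1 exon 9, chr2:189854822-189854875, plus strand: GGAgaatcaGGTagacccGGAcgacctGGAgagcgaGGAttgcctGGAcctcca
COL5A2 exon 38, chr2:189918150-189918203, minus strand: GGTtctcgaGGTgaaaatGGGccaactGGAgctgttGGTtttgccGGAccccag
COL5A3 exon 48, chr19:10084595-10084648, minus strand: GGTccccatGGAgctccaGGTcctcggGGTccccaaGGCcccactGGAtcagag
COL27A1 exon 26, chr9:117014873-117014926, plus strand: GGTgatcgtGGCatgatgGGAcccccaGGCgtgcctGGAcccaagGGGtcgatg
COL16A1 exon 33, chr1:32149551-32149604, minus strand: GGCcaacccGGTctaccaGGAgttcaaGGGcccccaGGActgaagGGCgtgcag

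These genes repeat the same codon pattern in different base composition. COL3A1 had 24 exons of 54 bases and an unbroken run of 343 glycine repeats, and 22.3% of its glycine codons ended in G or C. In COL5A2 the run was 339 repeats and the share 30.3%. In COL5A3 the run was 337 repeats and the share 54.5%, and in COL27A1 they were 217 repeats and 55.7%. COL16A1, a fibril-associated collagen with an interrupted helix, had a longest run of 57 repeats and a share of 52.9%. The laminins hold no such helix, and the longest run in the 7 expressed laminins was 4. This composition is given because the ratio of GDF1 to control cells tended to be higher at higher GC content across protein-coding genes. Its part in the differences of these genes was not tested.

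The libraries were first checked as a whole. TPM summed to 999990 in control cells and 999995 in GDF1 cells, which is fixed by the unit, so sequencing depth is unknown. The log2 change is that of TPM plus a pseudocount of 1, GDF1 cells against control cells, a scale that understates the change of genes with low TPM. The introduced GDF1 was listed at 2.1 and 4.64 TPM, and CERS1, the gene that shares its exons, at 13.3 and 9612 TPM. Over the 14929 genes that reached 1 TPM in either library the median log2 change was -0.20, and 4.82% of genes were over 2-fold higher and 9.61% over 2-fold lower in GDF1 cells. A rescaling of TPM that brings this median to 0 adds up to 0.24 to the log2 change of a gene. The change was higher at higher GC content (Spearman's rho 0.33 across 11792 protein-coding genes, which share the 2 libraries and are not replicates). Of the 7 markers of hepatocyte-lineage and epithelial cells, all were above 1 TPM in control cells, and ALB, AFP, APOA1 and TTR were over 2-fold lower in GDF1 cells. The other 3 were within 2-fold: the keratins KRT8 (1424 and 1777 TPM) and KRT18 (1005 and 1224 TPM) were higher in GDF1 cells and SERPINA1 (5308 and 2915 TPM) was lower. Of the 9 markers of fibroblasts and stellate cells, the usual producers of collagen, 1 reached 1 TPM (DES, 1.79 and 0.92 TPM). DCN, FAP, PDGFRA and ACTA2 were listed at 0.0001 TPM, the value that stands for 0, in both libraries. The markers of this list summed to 2.89 TPM in control cells and 1.67 TPM in GDF1 cells. Of the 4 endothelial markers PECAM1 was listed at 23.2 and 22.2 TPM, VWF and KDR at 0.0001 TPM, and CDH5 at 0.26 and 0.20 TPM.

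**Figure D1:**
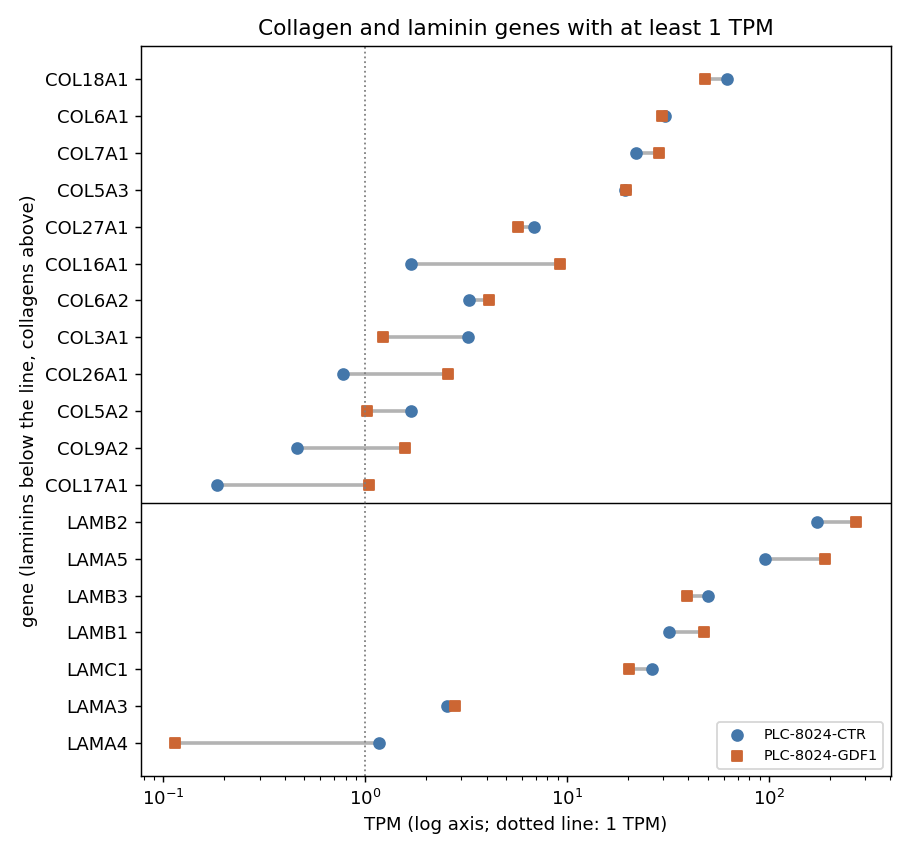
TPM (log axis) of the 19 collagen and laminin genes with at least 1 TPM, with a circle for control cells, a square for GDF1 cells and 1 library behind each point. LAMB2 and LAMA5 are the highest of the 19 in both libraries, and the widest gaps lie among genes near 1 TPM and at COL16A1.

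With a pseudocount of 1, COL16A1 and COL26A1 were over 2-fold higher in GDF1 cells and none of the 19 genes was over 2-fold lower. The other 17 stayed within 2-fold. In the higher direction the share was 10.5% of the members against 4.82% of all genes, and in the lower 0 against 9.61%. With the plain ratio or a pseudocount of 0.1, 4 members were over 2-fold higher and 2 over 2-fold lower. The share of all genes is not given for those settings. Of the 19, 11 were higher and 8 lower in GDF1 cells by any amount, with a median log2 change of 0.14 for the 12 collagens and 0.10 for the 7 laminins. The minimum of 1 TPM bears on these counts. Of the 19 genes, 15 passed it in both libraries, 3 in GDF1 cells alone (COL26A1, COL9A2 and COL17A1) and 1 in control cells alone (LAMA4), and these 4 had to differ to be listed in this way. Among the 15, COL16A1 was the 1 gene over 2-fold higher, where 3.68% of the 12867 genes that reached 1 TPM in both were over 2-fold higher and 8.21% over 2-fold lower. The member just inside the limit was COL17A1, with a higher value of 1.04 TPM, and the one just outside was COL1A1, with 0.84 TPM.

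As a group the laminins had more transcript than the collagens. The 7 laminins summed to 380.6 TPM in control cells and 570.5 TPM in GDF1 cells, a log2 ratio of 0.58. LAMA5 and LAMB2 made up 70.6% of the laminin TPM in control cells and 80.7% in GDF1 cells. Of the 7, 4 were higher and 3 lower in GDF1 cells. The 12 collagens summed to 151.8 and 152.5 TPM, a log2 ratio of 0.01. The single collagens nevertheless differed between the libraries, and of the 12, 7 were higher and 5 lower in GDF1 cells. COL18A1, the highest, was lower (61.8 and 48.3 TPM), while COL7A1 (22.1 and 28.5 TPM) and COL16A1 (1.69 and 9.19 TPM) were higher. Changes in both directions were also present among the genes of low TPM.

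Laminin alpha chains carry the cell-binding domains of the trimer. LAMA5, the broad epithelial alpha chain, was listed at 95.7 TPM in control cells and 188.8 TPM in GDF1 cells, a plain ratio of 1.97 and a log2 change of 0.97. This was just within 2-fold on the deposited scale and passed it with rescaled TPM (1.21). LAMA5 lies on chromosome 20 of GRCh37, minus strand, from 60883011 to 60942368, and the longest transcript has a GC content of 66.4%. At that GC content the trend over all protein-coding genes stood at 0.23, and with this trend removed the log2 change was 0.75. LAMA5 overlaps ADRM1 on the opposite strand, which was listed at 488.1 and 470.7 TPM, and whether the counting used the strand of reads is not given in the sources used here. LAMA3, the alpha chain of epidermal and other stratified basement membranes, was listed at 2.53 and 2.77 TPM, so the libraries were close for this gene. LAMA4, an alpha chain of vessels and muscle, was listed at 1.17 and 0.11 TPM, with a log2 change of -0.96 and a plain ratio of 10.2 in favour of control cells. Both values are low and the depth behind them is unknown. LAMA1 and LAMA2 were at 0.0001 TPM in both libraries. LAMA5 thus had 37.8 times the TPM of LAMA3 in control cells and 68.1 times in GDF1 cells.

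Beta chains are shared by many trimers. LAMB2, found in mature basement membranes, had the highest TPM of all 56 genes in both libraries, 173.0 TPM in control cells and 271.8 TPM in GDF1 cells, a log2 change of 0.65. Its mean ranked 626 among the 14929 genes. LAMB1, the beta chain of embryonic basement membranes, was listed at 32.0 and 47.5 TPM, a log2 change of 0.56. Both were higher in GDF1 cells, within 2-fold, and the ratio of LAMB2 to LAMB1 was 5.41 and 5.72 in the 2 libraries. LAMB1 overlaps DLD on the opposite strand, which was lower in GDF1 cells (25.9 and 10.6 TPM). LAMB3, which pairs with LAMA3 in hemidesmosome-bound laminin, went the other way, from 49.8 TPM in control cells to 39.3 TPM in GDF1 cells, a log2 change of -0.34. LAMB4 was at 0.0001 TPM in both. The GC content of LAMB2 was 60.3%, where the trend was near 0 (-0.01), and that of LAMB1 was 51.8%, where the trend was -0.24, so that the change without the trend was 0.66 for LAMB2 and 0.79 for LAMB1.

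LAMC1, the gamma chain of most laminins, was listed at 26.3 TPM in control cells and 20.2 TPM in GDF1 cells, a log2 change of -0.37, which was -0.07 with the GC trend removed. LAMC3 was listed at 0.0001 and 0.12 TPM. LAMC1 was thus below the sum of the alpha chains, 99.4 and 191.7 TPM, and below that of the beta chains, 254.8 and 358.6 TPM, in both libraries. The ratio of LAMA5 to LAMC1 was 3.64 in control cells and 9.34 in GDF1 cells, and that of LAMB2 to LAMC1 was 6.57 and 13.4. The GC trend was not removed from these ratios. With the trend removed, the log2 changes of LAMA5 (0.75) and LAMB2 (0.66) were closer to that of LAMC1 (-0.07). LAMB3 stood at 19.7 times the TPM of LAMA3 in control cells and 14.2 times in GDF1 cells. Transcript levels do not show which trimers the cells assembled.

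**Figure D2:**
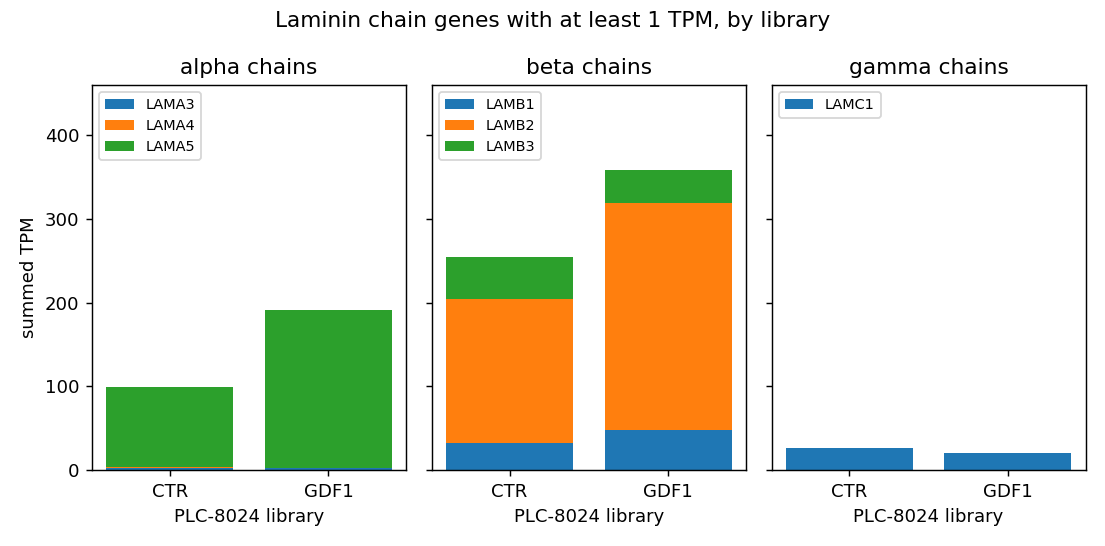
Summed TPM of the laminin alpha, beta and gamma chain genes above 1 TPM, shown for each library and stacked by gene on 1 linear axis from 0, with 1 library per bar. The alpha bar goes from 99.4 to 191.7 TPM and the beta bar from 254.8 to 358.6 TPM, while the gamma bar, LAMC1, goes from 26.3 to 20.2 TPM.

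Type IV collagen, the partner network of the laminins in basement membranes, was nearly absent from both libraries. The 6 genes COL4A1 to COL4A6 summed to 0.068 TPM in control cells and 0.060 TPM in GDF1 cells, and COL4A1, COL4A3 and COL4A6 were at 0.0001 TPM in both. COL4A2, which is transcribed from the same promoter region as COL4A1 in the opposite direction, was listed at 0.011 and 0.0001 TPM. COL18A1, a collagen of basement membranes whose end fragment is endostatin, was instead the collagen with the highest TPM, 61.8 TPM in control cells and 48.3 TPM in GDF1 cells. Its log2 change was -0.35, and -0.61 with the GC trend removed, since its GC content of 67.2% is the highest of the 19. It made up 40.3% of the collagen TPM in control cells and 31.2% in GDF1 cells. COL18A1 overlaps SLC19A1 on the opposite strand (34 and 30.1 TPM). COL15A1, its closest relative, was at 0.0001 TPM in both.

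The anchoring and beaded-filament collagens above 1 TPM were all within 2-fold between the libraries. COL7A1, which makes the anchoring fibrils that tie epithelial basement membranes to the tissue beneath, was listed at 22.1 and 28.5 TPM, a log2 change of 0.35. COL6A1 was listed at 30.4 and 29.6 TPM and COL6A2 at 3.28 and 4.11 TPM. These are 2 of the chains of type VI collagen, a filament found next to basement membranes. They lie 93061 bases apart on chromosome 21, and COL6A1 had 9.29 times the TPM of COL6A2 in control cells and 7.20 times in GDF1 cells. COL6A3, the chain that completes the common form of type VI collagen, was listed at 0.0001 and 0.022 TPM. The log2 change of COL6A1 was -0.04, and its sign turned with rescaled TPM (0.19).

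Among the 11 fibrillar collagens, 4 reached 1 TPM. COL5A3, a minor chain of type V collagen, was the highest, with 19.3 TPM in control cells and 19.6 TPM in GDF1 cells, and its log2 change of 0.02 turned to -0.11 with the GC trend removed. COL27A1, a fibrillar collagen of cartilage, was listed at 6.89 and 5.74 TPM. COL3A1, a main collagen of vessels and of the fibrotic liver, was lower in GDF1 cells (3.22 and 1.23 TPM), with a log2 change of -0.92. COL5A2 was lower as well (1.69 and 1.02 TPM), with a log2 change of -0.41. COL3A1 and COL5A2 are neighbours on chromosome 2, on opposite strands and separated by 19151 bases, and of the 4 fibrillar members above 1 TPM they have the lowest GC content (52.2% and 48.3%). With the GC trend removed the log2 change was -0.70 for COL3A1 and -0.11 for COL5A2. With the plain ratio COL3A1 passed 2-fold, with a log2 value of -1.39. The chains of type I collagen, the main collagen of scar tissue, stayed under 1 TPM: COL1A1 was listed at 0.20 and 0.84 TPM and COL1A2 at 0.0001 TPM in both. COL5A1, the chain that COL5A2 usually joins, was listed at 0.11 and 0.06 TPM.

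With a pseudocount of 1 the widest difference was in a fibril-associated collagen, while by the plain ratio LAMA4 and COL17A1, both near 1 TPM or below, differed more. COL16A1, which is known to connect fibrils with cells through integrins, was listed at 1.69 TPM in control cells and 9.19 TPM in GDF1 cells, a plain ratio of 5.44 and a log2 change of 1.92. The gene spans 32117864 to 32169920 of chromosome 1 in GRCh37, minus strand, and no other gene with at least 1 TPM overlaps it. Its GC content was 62.3%, where the trend over protein-coding genes was 0.06, and it was past 2-fold in all 4 alternative calculations, with log2 changes between 1.86 (GC trend removed) and 2.44 (plain ratio). COL9A2, a fibril-associated collagen of cartilage, was listed at 0.46 and 1.57 TPM, a log2 change of 0.81 that passed 2-fold with a pseudocount of 0.1 (1.57). The other 8 genes of this class were under 1 TPM in both libraries, the highest being COL9A3 with 0.54 and 0.37 TPM.

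The last 2 collagens above 1 TPM were low in both libraries. COL26A1, a short collagen first described in testis and ovary, was listed at 0.78 and 2.57 TPM. Its log2 change of 1.01 was barely over 2-fold and fell to 0.88 with the GC trend removed. COL17A1, the transmembrane collagen of hemidesmosomes, was listed at 0.18 and 1.04 TPM, with a log2 change of 0.78 and a plain log2 ratio of 2.50. For these genes of about 1 TPM the size of the change depended on the pseudocount, as the plot of 5 settings shows. Of the 37 members under 1 TPM, 18 were at 0.0001 TPM in both libraries and 19 were between.

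**Figure D3:**
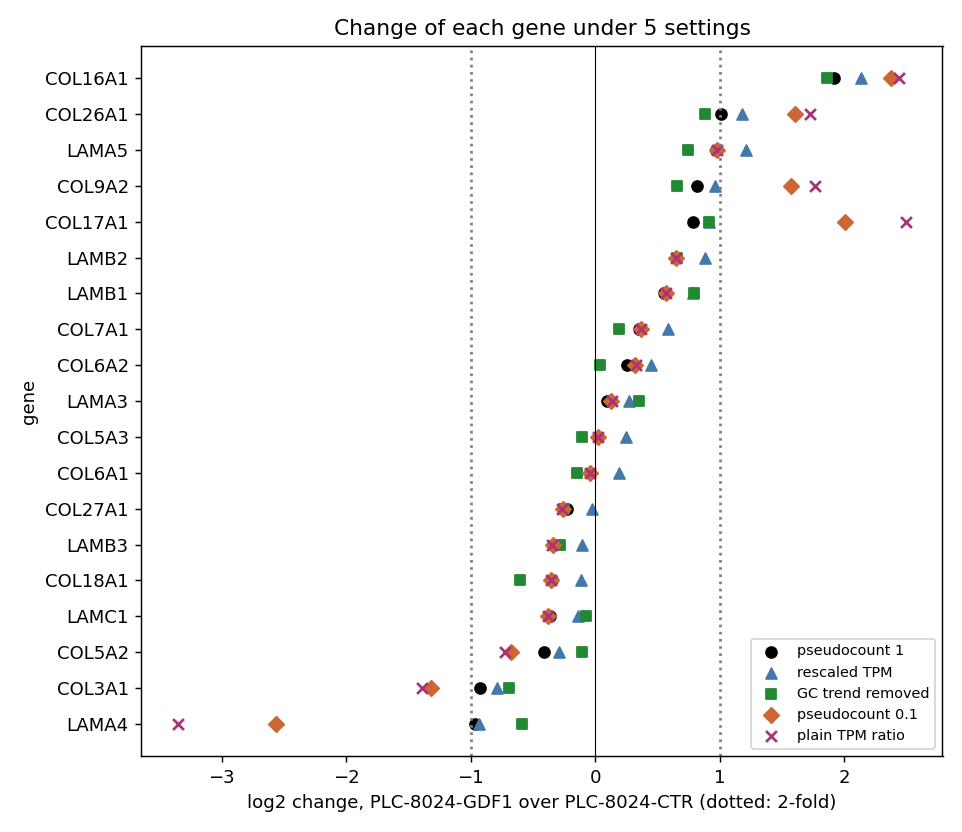
Log2 change of GDF1 (PLC-8024-GDF1) against control (PLC-8024-CTR) cells for the 19 genes under 5 settings, with 1 library per condition and dotted lines at 2-fold. COL16A1 lies beyond the right line in each setting (1.86 to 2.44), while LAMA4 runs from -0.59 to -3.35.

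Glycine codons begin with GG and proline codons with CC, but the GC content of collagen transcripts differs widely from gene to gene. The median GC content of the longest transcript was 63.8% for the 12 collagens and 51.8% for the 7 laminins, against 49.4% for all protein-coding genes with at least 1 TPM, and 16 of the 19 members were above that value. Across the 19 members the log2 change and the GC content had a Pearson's r of 0.50 and a Spearman's rho of 0.48, given as a description, since all points share the 2 libraries and the trend is present over protein-coding genes. Of the 10 members at or above the members' own median GC content, 7 were higher in GDF1 cells, and of the 9 below it, 5 were lower. With the trend removed, 10 of the 19 lay above the trend, and the median was -0.04 for the collagens and 0.35 for the laminins. The part of GC content in these differences was not tested.

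**Figure D4:**
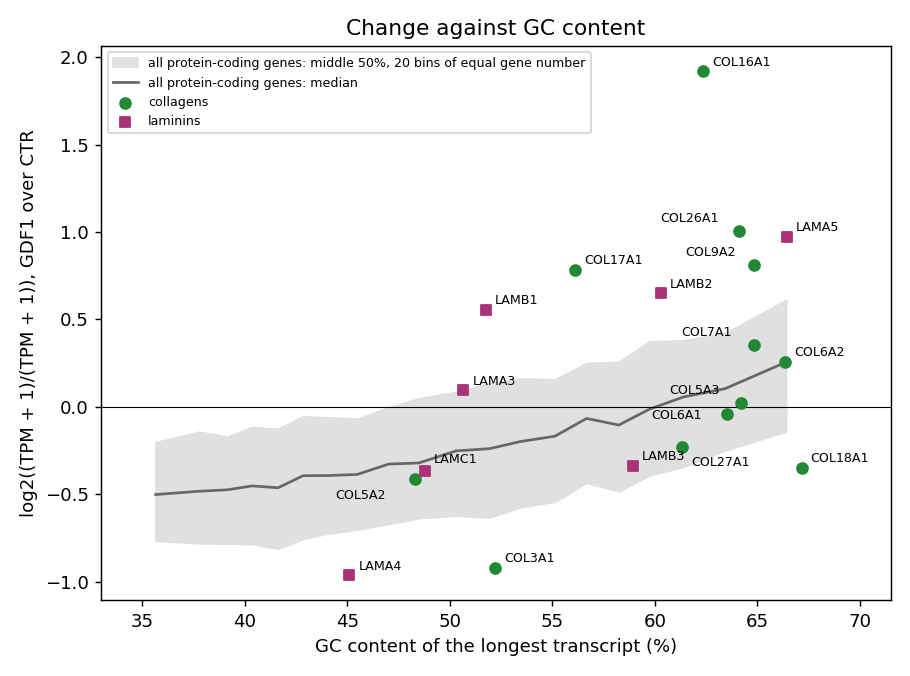
Log2 change of GDF1 (PLC-8024-GDF1) against control (PLC-8024-CTR) cells against the GC content of the longest transcript (%), with circles for collagens, squares for laminins, and the median and middle 50% of all protein-coding genes with at least 1 TPM in 20 bins of equal gene number. COL16A1 (1.92) lies farthest above the shaded band, COL3A1 (-0.92) and LAMA4 (-0.96) lie below it, and COL18A1 (-0.35) lies to its right.

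Promoters were read for the genes on which the comparison turned, COL16A1, LAMA5 and LAMB2. The sequences are the 250 bases before the transcription start in RefSeq on GRCh38.p14, 5′ to 3′ on the coding strand. Capitals mark GGGCGG, the GC box bound by SP1, and CAGAC, a core element bound by SMAD3, on either strand (so that CCGCCC and GTCTG are marked too). The motifs do not overlap each other.
COL16A1, chr1:31704018-31704267, minus strand: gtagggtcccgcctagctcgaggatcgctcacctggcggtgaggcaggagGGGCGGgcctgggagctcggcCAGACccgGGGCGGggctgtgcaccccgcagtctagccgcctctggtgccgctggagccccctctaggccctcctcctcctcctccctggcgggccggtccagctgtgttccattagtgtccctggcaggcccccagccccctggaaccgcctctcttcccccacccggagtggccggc
LAMA5, chr20:62367313-62367562, minus strand: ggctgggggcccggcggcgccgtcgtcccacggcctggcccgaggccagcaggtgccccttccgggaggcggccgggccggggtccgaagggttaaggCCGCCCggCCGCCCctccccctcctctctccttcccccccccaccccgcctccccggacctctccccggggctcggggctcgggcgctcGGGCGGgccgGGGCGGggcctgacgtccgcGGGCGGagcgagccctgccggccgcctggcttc
LAMB2, chr3:49133051-49133300, minus strand: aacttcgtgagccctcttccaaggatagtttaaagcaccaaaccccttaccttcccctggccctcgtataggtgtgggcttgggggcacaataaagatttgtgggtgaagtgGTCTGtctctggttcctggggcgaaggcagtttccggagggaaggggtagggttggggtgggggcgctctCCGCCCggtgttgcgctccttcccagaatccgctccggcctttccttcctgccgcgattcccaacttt

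LAMA5 held 5 GC boxes, COL16A1 held 2 and LAMB2 held 1, and CAGAC occurred once in COL16A1, once in LAMB2 and not in this window of LAMA5. The RefSeq table held 19 promoters of 16 of the 19 expressed members. COL3A1, COL5A2 and COL6A1 had no entry. CAGAC was present in 8 of the 19 promoters (42.1%), against 38.0% of all 35116 promoters of the table, and GGGCGG in 16 of the 19 (84.2%), against 42.6%. COL18A1 and LAMB3 had more than 1 promoter, and by gene the counts were 8 of 16 for CAGAC and 13 of 16 for GGGCGG. No share by gene over all promoters is given beside these counts. The 35116 promoters were not limited to expressed genes or matched for GC content. The contrast for the GC-rich GGGCGG is therefore no result about the members. The CAGAC share by promoter is near that of all promoters and is no result about the members either. COL26A1, COL7A1, COL9A2, LAMA4 and LAMC1 held CAGAC once each and LAMA3 held it 2 times, so that genes higher and genes lower in GDF1 cells are both among them. A match is a string of letters and not a measured binding site.

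The enzymes and chaperones that make collagen were examined as the next layer. Of 34 such genes, 26 reached 1 TPM, and 1 (3.85%) was over 2-fold higher and 3 (11.5%) over 2-fold lower in GDF1 cells. These shares are near the 4.82% and 9.61% of all genes, so the counts are no result about the list, and the genes are given for their values. The median log2 change of the 26 was -0.07, against -0.20 over all genes. The 3 most abundant genes of the list act in the endoplasmic reticulum and stayed within 2-fold. PPIB, a proline isomerase that also serves in collagen 3-hydroxylation, was higher in GDF1 cells at 4579 and 6496 TPM (log2 change 0.50). The others were closer in the 2 libraries: P4HB, the beta subunit of prolyl 4-hydroxylase, was listed at 1834 and 2003 TPM, and PDIA3, a protein disulphide isomerase, at 256.6 and 253.0 TPM. SERPINH1, the collagen-specific chaperone HSP47, was low in both at 6.52 and 7.66 TPM.

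With a pseudocount of 1 the gene over 2-fold higher was P3H3, a prolyl 3-hydroxylase family member that acts with lysyl hydroxylase. It was listed at 3.80 TPM in control cells and 27.4 TPM in GDF1 cells (log2 change 2.57). P4HA1, the main catalytic subunit of prolyl 4-hydroxylase, was over 2-fold lower, at 20.9 and 4.82 TPM (log2 change -1.91). P4HA2, the other broadly expressed catalytic subunit, was listed at 29.5 and 27.0 TPM (log2 change -0.12), so it stayed within 2-fold where P4HA1 did not. LOX, which crosslinks collagen outside the cell, was listed at 7.32 and 2.36 TPM (log2 change -1.31), and PLOD2, a lysyl hydroxylase of the collagen ends, at 2.61 and 0.70 TPM (log2 change -1.08). P4HA1, LOX and PLOD2 have a GC content of 35.5% to 40.9%. With the GC trend removed P4HA1 (-1.46) and P3H3 (2.52) stayed past 2-fold, and LOX (-0.85) and PLOD2 (-0.61) did not.

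Basement membrane partners and matrix receptors past 2-fold were all lower in GDF1 cells. Of 24 such genes, 14 reached 1 TPM. Of these, 5 (35.7%, against 9.61% of all genes) were over 2-fold lower and 0 (against 4.82%) over 2-fold higher. The median log2 change was -0.71, against -0.20 over all genes. The list was chosen with earlier results of these data known, so these shares are a description only. NID1, nidogen 1, which links laminin to type IV collagen, was listed at 5.30 and 0.77 TPM (log2 change -1.84). NID1 thus reached 1 TPM in control cells alone and entered the count only through the library where it was high. NID2 was at 0.42 and 0.0001 TPM. FN1, fibronectin, was listed at 87.5 and 38.1 TPM (log2 change -1.18). The other abundant partners were AGRN, agrin, at 46.2 and 23.5 TPM and SPARC, a collagen-binding glycoprotein, at 29.5 and 18.0 TPM. HSPG2, the heparan sulphate proteoglycan perlecan, was higher in GDF1 cells, at 11.6 and 22.7 TPM (log2 change 0.91).

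Among the receptors, ITGB1, the beta 1 integrin subunit shared by the main collagen and laminin receptors, was listed at 57.6 and 12.2 TPM (log2 change -2.15). ITGA3, its laminin-binding partner, was listed at 7.88 and 2.96 TPM (log2 change -1.16), and DDR1, a collagen-activated receptor tyrosine kinase, at 31.0 and 9.12 TPM (log2 change -1.66). BCAM, a receptor for the LAMA5 chain, was listed at 19.4 and 30.4 TPM (log2 change 0.62). DAG1, dystroglycan, was listed at 2.06 and 2.70 TPM. Of the 9 receptors with at least 1 TPM, 4 were higher in GDF1 cells by any amount (BCAM, DAG1, ITGA1 and ITGA7). The other 5 were lower (ITGB1, ITGA3, DDR1, ITGA6 and ITGB4). With the GC trend removed, DDR1 (-1.69), ITGB1 (-1.68), NID1 (-1.59) and ITGA3 (-1.19) stayed over 2-fold lower, AGRN (-1.24) joined them, and FN1 (-0.75) did not stay. With rescaled TPM, ITGA3 (-0.98) and FN1 (-0.95) were within 2-fold and HSPG2 (1.13) was over 2-fold higher.

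**Figure D5:**
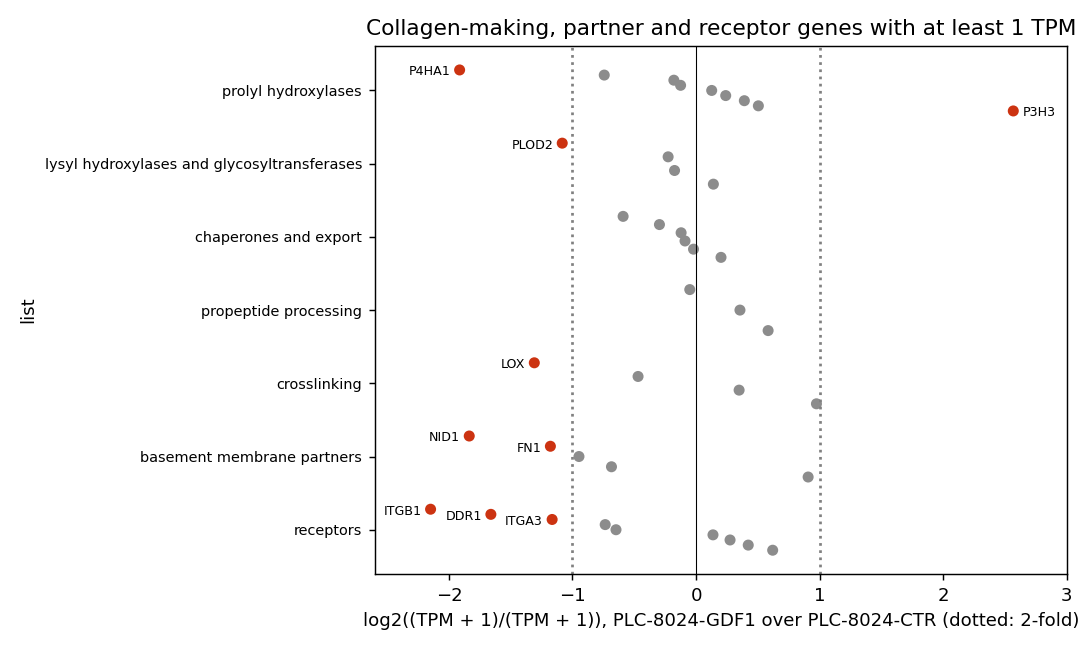
Log2 change of GDF1 (PLC-8024-GDF1) against control (PLC-8024-CTR) cells for genes with at least 1 TPM that make collagen (5 groups), bind basement membranes or serve as matrix receptors, 1 point per gene, dotted lines at 2-fold and red points past it. P3H3 (2.57) is the 1 red point on the right, and ITGB1 (-2.15) is the farthest on the left.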

How the data were processed

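RNA-seq was performed on 1 library of PLC-8024-CTR and 1 library of PLC-8024-GDF1 cells. Per the methods and the labels, the authors filtered reads with Trimmomatic 0.36, aligned them to hg19 with HISAT2 2.1.0, quantified them with StringTie 1.3.3b and deposited 1 TPM value per gene; 0.0001 stands for 0. The tools and versions are from the submitters' processing notes. The value column is headed as a mean TPM, and how many runs stand behind it is not given in the sources used here; each file was taken as 1 library. Genes carry Ensembl identifiers although the methods name RefSeq. Depth cannot be read from TPM, and no counting error is given.

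From these values the log2 ratio was computed with a pseudocount of 1 over genes that reached 1 TPM in either library; those past 2-fold were counted. No test was made. Gene positions and GC content were taken from GENCODE release 44 lifted to GRCh37, in which 55726 of 58174 identifiers and all 56 members were found. The GC trend was a lowess fit with a span of 0.3 over protein-coding genes. Alternatives were a pseudocount of 0.1, the plain ratio, rescaled TPM, the GC trend removed, and other TPM minimums. Members and lists were chosen with earlier results of these data known. Every member with at least 1 TPM was named, with the listed genes past 2-fold and the 3 most abundant of the biosynthesis list and of the partner and receptor list. Others named from the lists (P4HA2, SERPINH1, SPARC, NID2, HSPG2, BCAM, DAG1, ITGA1, ITGA6, ITGA7, ITGB4), the single marker genes and members under 1 TPM were chosen after their values were seen. The scripts ran in Python 3.11.15 with statsmodels 0.14.6, pandas 2.3.3, numpy 2.4.6 and matplotlib 3.10.9 and were tested on simulated data. The values of 1 member are not reported here.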

Additional observations from a re-analysis of the deposited data

How the results depend on the processing

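No paired analysis was possible because the labels give a single library for each condition. The number of collagen and laminin genes past 2-fold, 2 at first, was 6 with the plain ratio and also with a pseudocount of 0.1 (4 higher, 2 lower in each), and 1 with the GC trend removed or with at least 5 TPM. The median log2 change of the collagens, 0.14 at first, was -0.037 with the GC trend removed, -0.0079 with at least 5 TPM and 0 with no filter on low values, where most members are at or near 0 TPM and the laminin median was 0 as well. The laminin median, 0.10 at first, was 0.56 with at least 5 TPM, 0.35 with the GC trend removed and 0.27 with rescaled TPM. The number of collagen biosynthesis genes past 2-fold went from 4 to 2 with the GC trend removed (1 higher, 1 lower). It was 6 with the plain ratio and also with a pseudocount of 0.1 (2 higher, 4 lower in each). With rescaled TPM it was 2 higher and 2 lower. The number of partner and receptor genes stayed within 1.5 times the first value of 5 under each alternative tried, but with rescaled TPM it was 1 higher and 3 lower. The summed TPM of the laminins kept its direction under the alternatives tried. These included leaving out LAMB2 (log2 ratio 0.52), but LAMA5 then stayed in the sum. No alternative left out both LAMA5 and LAMB2, which hold most of the laminin TPM, so a rise shared by the other laminins is not shown. That of the collagens was near equal in the 2 libraries at first, so its sign gives no direction. The GC trend was not removed from the sums. Rescaling moved the collagen sum from a log2 ratio of 0.01 to 0.24, and leaving out COL18A1 to 0.21. Of the 19 single genes, 4 (COL9A2, COL3A1, COL17A1 and LAMA4) newly passed 2-fold with the plain ratio and with the lower pseudocount, 1 (LAMA5) passed with rescaled TPM, and 1 (COL26A1) no longer passed with the GC trend removed. No gene overlapped an expressed gene on its own strand. The cause of these shifts was not tested. TPM holds no depth, which limits genes of about 1 TPM most.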
